A study of Mus musculus with 12 samples.

Results

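Snrpn and 9 other imprinted genes were followed across 3 lines of murine acute myeloid leukaemia cells. The 10 genes were Snrpn, Impact, Grb10, Igf2r, Mest, Peg3, Peg10, Plagl1, Nnat and Meg3, which lie in several imprinted loci. They were chosen with the array values of these lines in view, so their differences between lines are given as a description with no test. Every probe set annotated to 1 of these genes and to no other gene was taken. This gave 21 probe sets of 45141 on the array, for 6 of the 10 genes: 10 for Meg3, 3 each for Snrpn and Grb10, 2 each for Peg3 and Plagl1, and 1 for Impact. A further 4 probe sets are shared by Snrpn and Snurf, 1 by Igf2r and Airn and 1 by Mest and Copg2. These were not used, so Igf2r and Mest, and likewise Peg10 and Nnat, were not analysed here.

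The lines TB14 and TB13 carry Bcl11a beside Trib1 in their labels, and the line Trib1 carries Trib1 alone. Trib1 is a pseudokinase known to promote degradation of C/EBPalpha, and Bcl11a is a zinc finger repressor. All lines were kept in IMDM with serum (10%) and interleukin-3 (5 ng/ml), received no treatment, and gave 4 arrays each from total RNA. Genotype with Bcl11a was represented by 2 lines and genotype without it by 1. The sources used here do not give whether a line was a clone, which vector carried the genes or how the 4 arrays of a line were obtained. Separate cultures are named nowhere in the labels, so every SD, SE and p-value reflects array-to-array spread alone, and that spread may be technical.

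Imprinted genes are expressed mainly from the copy inherited from 1 parent. The choice is set by DNA methylation laid down in the germ line at control regions and kept through cell divisions by maintenance methyltransferase activity and by zinc finger proteins that recruit repressive complexes. Snrpn, Impact, Mest, Peg3, Peg10, Plagl1 and Nnat are known in the mouse as genes read from the paternal copy, Igf2r and Meg3 as genes read from the maternal copy, and Grb10 as maternal in most tissues and paternal in neurons. The arrays measured total transcript signal and could not tell the parental copies apart.

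Promoter windows from 250 bases before to 20 bases after the annotated start are shown for Snrpn and Meg3, whose representative probe sets had the highest TB13 minus Trib1 differences among the members. The sequences are from RefSeq on GRCm38.p6. The Snrpn window is the start shared with Snurf, at chr7:60005180-60005449 on the minus strand, and the Meg3 window lies at chr12:109540746-109541015 on the plus strand. Capitals mark matches, on either strand, to TGCCGC (the hexamer known to be bound by ZFP57, a protein that keeps imprints), to TGACCA (known as a BCL11A site in globin promoters) and to GAGGAA (the core of PU.1 sites).
Snrpn promoter: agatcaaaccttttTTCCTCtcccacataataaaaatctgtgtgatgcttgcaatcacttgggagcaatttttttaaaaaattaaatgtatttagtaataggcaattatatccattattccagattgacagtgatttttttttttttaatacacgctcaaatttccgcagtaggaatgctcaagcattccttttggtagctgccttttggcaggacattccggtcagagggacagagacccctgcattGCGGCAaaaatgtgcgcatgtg
Meg3 promoter: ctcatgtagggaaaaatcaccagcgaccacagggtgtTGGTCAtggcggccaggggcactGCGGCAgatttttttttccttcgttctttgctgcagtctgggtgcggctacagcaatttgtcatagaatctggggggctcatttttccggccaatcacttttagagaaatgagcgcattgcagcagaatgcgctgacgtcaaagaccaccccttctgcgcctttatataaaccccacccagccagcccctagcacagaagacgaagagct

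The Snrpn window held 1 match to TGCCGC and 1 to GAGGAA, both as the complement, and none to TGACCA. The Meg3 window held 1 match to TGCCGC and 1 to TGACCA and none to GAGGAA. No match overlapped another. RefSeq lists 3 further Snrpn starts and 1 further Meg3 start, whose windows are not shown. Of the Snrpn ones, chr7:60047959-60048228 held 1 GAGGAA match alone, chr7:60450158-60450427 held 1 TGACCA match alone and chr7:60140206-60140475 held none, and the second Meg3 window held none. Windows of other members held such matches too. The Plagl1 window held 1 TGCCGC match alone and the Peg3 window 1 GAGGAA match alone. For Grb10, chr11:12027952-12028221 held 1 TGACCA match alone and chr11:12037401-12037670 held none. Over 32817 promoter windows of 270 bases, TGCCGC occurred in 9.68%, TGACCA in 12.3% and GAGGAA in 25.1%. The Snrpn window had 5 CpG dinucleotides and 37.8% G and C, and the Meg3 window had 11 and 52.2%, against medians of 6 and 52.6% over all windows. These are matches of letters and not sites shown to be bound.

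The values were linear intensities, and the arrays of TB13 were on another scale than those of the other lines. The array medians were 20.8 to 21.1 in TB14, 25.5 to 25.9 in TB13 and 21.1 to 21.4 in Trib1, while the 75th percentiles were 106.0 to 108.9 in TB14, 71.8 to 72.5 in TB13 and 102.2 to 105.5 in Trib1. The 18 hybridization controls, which are RNAs added at set amounts, had a median log2 difference of -0.93 for TB13 minus Trib1, with 17 of 18 lower, and of 0.001 for TB14 minus Trib1. For this reason differences with TB13 are also given after quantile scaling, which gives every array the same distribution, while levels and ranges in intensity units are those deposited unless stated. Within a line the arrays correlated at 0.9952 to 0.9994 across probe sets on the log2 scale, and no pair held identical values. All 12 myeloid marker genes on a list used as a check of the cell type passed the filter on low values in these arrays, with summed intensities of 15537 to 15720 in TB14, 9951 to 10176 in TB13 and 12384 to 12550 in Trib1. After quantile scaling the sums were 14850 to 15069 in TB14, 11278 to 11625 in TB13 and 11826 to 11897 in Trib1. The 4 probe sets for Bcl11a and the 2 for Trib1 gave 6.70 to 21.5 and 14.4 to 40.1 intensity units over all arrays. By line mean, in the order TB14, TB13 and Trib1, Bcl11a 1419406_PM_a_at gave 13.8, 15.5 and 17.7 and 1426552_PM_a_at 12.1, 10.5 and 11.7. Likewise 1456632_PM_at gave 9.02, 11.3 and 10.3 and 1457072_PM_at 7.17, 8.12 and 8.78. No Bcl11a probe set averaged higher in both Bcl11a lines than in Trib1, and none passed the filter on low values. The Bcl11a and Trib1 probe sets did not check the labels, since the sources used here do not say whether they cover the introduced sequences.

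Snrpn encodes SmN, a member of the SmB family of the spliceosome's Sm core that is known for high expression in brain. Probe set 1415895_PM_at gave 309.8, 315.8, 313.0 and 301.8 in TB14, 1104, 1119.6, 1042 and 1151 in TB13, and 354, 343, 336 and 315 in Trib1. All TB13 arrays were high, and the TB14 and Trib1 arrays overlapped. The means were 310.1 ± 6.03 in TB14, 1104 ± 46.0 in TB13 and 337 ± 16.7 in Trib1 (SD, n = 4 each). On the scale of log2(intensity + 12.7), the difference was -0.11 ± 0.04 (SE) for TB14 minus Trib1 and 1.68 ± 0.04 for TB13 minus Trib1. After quantile scaling they were -0.13 and 2.12.

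The other Snrpn probe sets ran in the same order for TB13. Probe set 1415896_PM_x_at, whose suffix marks probes that may also bind other transcripts, gave 247.8, 246.6, 259.2 and 239.0 in TB14, 780.1, 814.1, 809.7 and 809.1 in TB13, and 266.2, 262.6, 265.6 and 260.3 in Trib1. Here the TB13 arrays were again all high, and the TB14 arrays lay just below the Trib1 arrays without overlap. The log2 difference was -0.08 ± 0.03 (SE) for TB14 minus Trib1 and 1.56 ± 0.03 for TB13 minus Trib1, the second being 2.07 after quantile scaling. Probe set 1432096_PM_at gave 16.6 to 17.6 in TB14, 30.1 to 38.0 in TB13 and 15.7 to 17.6 in Trib1. It lay below the array median on all TB14 and Trib1 arrays and above it on all TB13 arrays, with a log2 difference of 0.67 for TB13 minus Trib1 and of 0.53 after quantile scaling. The folds of the means for TB13 over Trib1 were 3.28, 3.05 and 2.05 as deposited for 1415895_PM_at, 1415896_PM_x_at and 1432096_PM_at, and 4.48, 4.38 and 1.77 after quantile scaling.

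**Figure D1:**
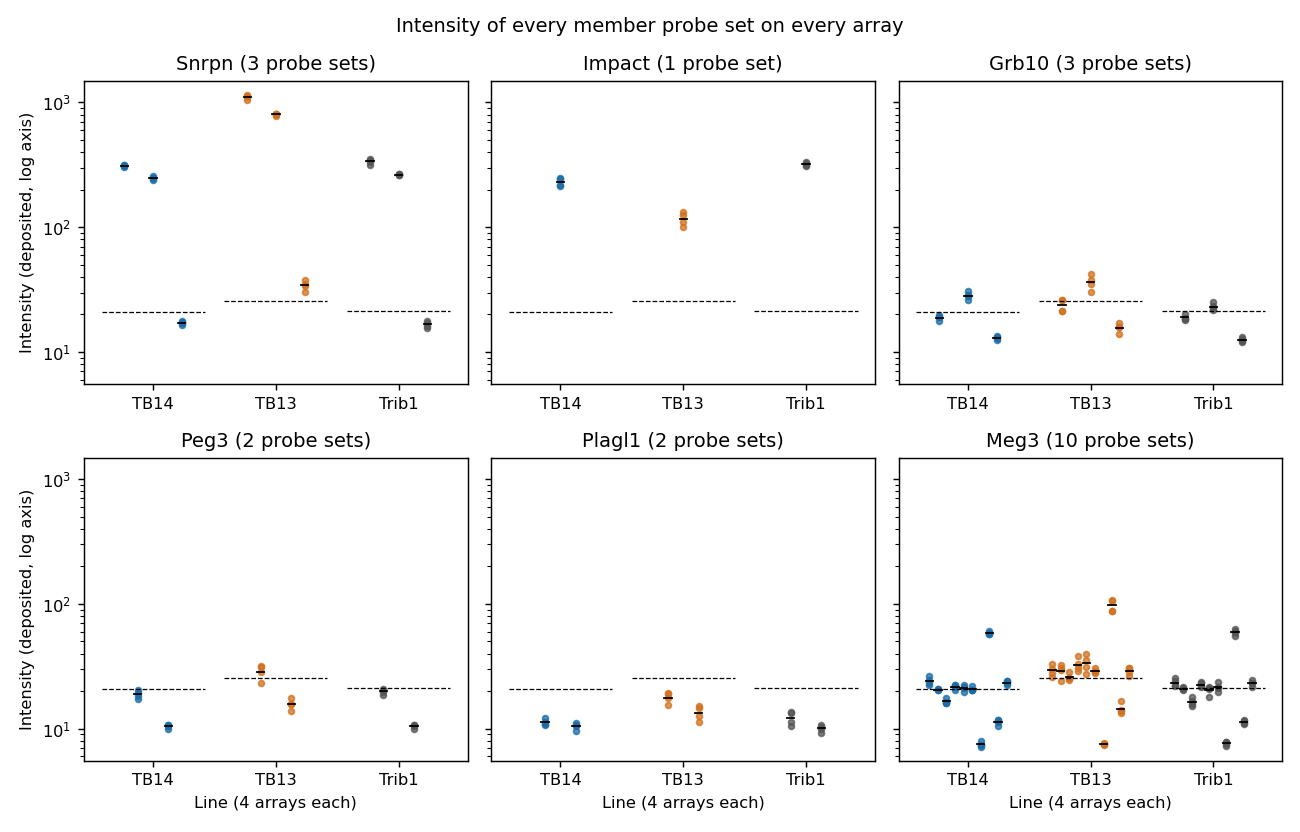
Deposited intensity (log axis) of each of the 21 member probe sets on each array of TB14, TB13 and Trib1, with 1 panel for each gene. Points are arrays, short bars are line means and dashed lines are the mean array median of each line; 2 Snrpn probe sets were between 780 and 1151 on the TB13 arrays and between 239 and 354 on all others, whereas most probe sets of Grb10, Peg3, Plagl1 and Meg3 lay near or below the dashed lines.

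Probes for other signals also differed between TB13 and the other lines, and these are given beside Snrpn. The nonspecific control probe sets, which match no transcript and are ordered by how many G and C bases their probes hold, had ratios of 0.94 to 1.14 for TB13 over Trib1 up to 20 such bases and higher ratios beyond. At 25 G and C bases they averaged 196.7 in TB14, 529.9 in TB13 and 195.8 in Trib1, a ratio of 2.71 for TB13 over Trib1, and at 22 the ratio was 1.49. After quantile scaling the control probe sets had ratios of 4.18 at 25 bases, 2.52 at 24, 1.91 at 23 and 1.26 at 22. Their part in the difference of Snrpn was not tested, since probe sequences were not used here. The neural marker list, with Syp, Rbfox3 and Gfap among its 10 genes, summed to 272.2 to 284.3 in TB14, 511.1 to 595.1 in TB13 and 273.5 to 289.1 in Trib1, or after quantile scaling to 263.2 to 276.2 in TB14, 665.9 to 778.1 in TB13 and 268.3 to 281.6 in Trib1. Only those 3 genes of the list passed the filter on low values, and 7 of 10, with Tubb3, Map2, Snap25 and Sox2 among them, lay below the array median on all 12 arrays. Syp, which encodes the vesicle protein synaptophysin, made the most of the sum through a probe set with the same suffix for possible cross-binding, at 121.7 ± 5.45 in TB14, 336.8 ± 39.3 in TB13 and 127.7 ± 7.82 in Trib1 (SD, n = 4 each), a log2 difference of 1.31 for TB13 minus Trib1 as deposited and 1.95 after quantile scaling. Of the other marker lists, 3 were higher in TB13 than in both other lines as deposited. The T and NK cell list of 10 genes, 6 of which passed the filter, summed to 188.0 to 194.9 in TB14, 304.0 to 351.5 in TB13 and 256.5 to 264.8 in Trib1. The B cell list of 8 genes, with 3 past the filter, summed to 110.8 to 118.4 in TB14, 147.5 to 161.3 in TB13 and 112.5 to 118.5 in Trib1. The stromal and endothelial list of 11 genes, with 3 past the filter, summed to 216.0 to 223.8 in TB14, 245.4 to 259.2 in TB13 and 218.7 to 236.4 in Trib1. The TB13 ranges of these 3 lists lay above the Trib1 ranges after quantile scaling as well. The erythroid and megakaryocyte list, at 2500 to 2524 in TB14, 2400 to 2591 in TB13 and 1930 to 1955 in Trib1, was higher than Trib1 in both Bcl11a lines. After quantile scaling it was highest in TB13, at 2251 to 2286 in TB14, 2919 to 3213 in TB13 and 1719 to 1754 in Trib1. The mast cell and basophil list was at 8848 to 8953 in TB14, 7250 to 7504 in TB13 and 8392 to 8470 in Trib1. The part of other cell types in the difference of Snrpn was not tested, and in total RNA more cells of a type and more RNA per cell cannot be told apart.

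**Figure D2:**
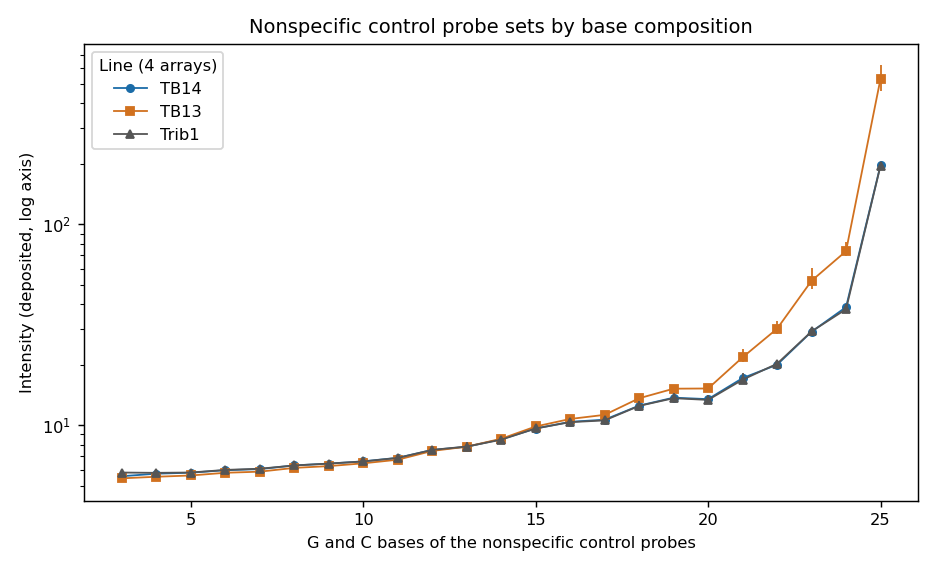
Mean deposited intensity (log axis) of the nonspecific control probe sets against the number of G and C bases of their probes, for TB14, TB13 and Trib1; bars span the lowest to the highest of the 4 arrays. TB14 and Trib1 coincide throughout, and TB13 parts from them most from 21 bases on, reaching 529.9 at 25.

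Among the 11223 genes tested, Snrpn had the 5th highest log2 difference for TB13 minus Trib1 as deposited, the 9th highest after quantile scaling and the 23rd highest after calibration on the hybridization controls. For TB14 minus TB13 it had the 3rd lowest as deposited, at -1.79, the 6th lowest after quantile scaling, at -2.25, and the 9th lowest after calibration, at -2.41. The genes whose log2 values followed Snrpn most closely over the 12 arrays were Ubxn11, Faim2, Arr3, Aplp2 and Tff1, with Pearson r of 0.998, 0.998, 0.997, 0.997 and 0.997. Aplp2, which encodes a relative of the amyloid precursor protein, averaged 335.9 ± 11.04 in TB14, 1006 ± 41.95 in TB13 and 339.0 ± 14.7 in Trib1 (SD, n = 4 each), a log2 difference of 1.53 for TB13 minus Trib1 as deposited and 2.00 after quantile scaling. Tff1, a secreted trefoil peptide gene, averaged 168.6 ± 3.01 in TB14, 460.2 ± 13.9 in TB13 and 183.6 ± 16.3 in Trib1, with differences of 1.27 and 1.90. The 12 points share 3 lines, so such an r mostly restates that TB13 stood apart, and 2108 genes had an r above 0.9.

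Impact encodes a protein known to hold back the kinase GCN2, which senses a lack of amino acids. Its probe set 1415911_PM_at gave 215.5, 218.5, 242.1 and 246.9 in TB14, 99.8, 124.3, 133.4 and 110.2 in TB13, and 311.1, 331.5, 328.0 and 314.9 in Trib1. No array of either Bcl11a line reached the lowest Trib1 array. The means were 230.8 ± 16.0 in TB14, 116.9 ± 14.9 in TB13 and 321.4 ± 9.88 in Trib1 (SD, n = 4 each). The log2 difference was -0.46 ± 0.07 (SE) for TB14 minus Trib1 and -1.37 ± 0.07 for TB13 minus Trib1. After quantile scaling these were -0.47 and -0.64, and after calibration on the hybridization controls -0.48 and -0.31. The value for TB14 moved little between scalings, and the size for TB13 depended on them. For TB14 minus TB13 the Impact difference was 0.91 as deposited, 0.18 after quantile scaling and -0.17 after calibration, so its direction was not settled.

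Grb10 encodes an adaptor known to dampen insulin receptor signalling. Its probe set 1425458_PM_a_at gave 25.95, 27.9, 28.4 and 30.8 in TB14, 30.6, 37.5, 41.98 and 35.03 in TB13, and 23.3, 22.6, 25.2 and 21.5 in Trib1. Both Bcl11a lines lay above Trib1 without overlap, by a narrow margin in TB14, where the lowest array was at 25.95, against 25.2 for the highest Trib1 array. The log2 difference was 0.19 ± 0.06 (SE) for TB14 minus Trib1 and 0.45 ± 0.06 for TB13 minus Trib1, or 0.20 and 0.32 after quantile scaling. The other Grb10 probe sets, 1425457_PM_a_at and 1430164_PM_a_at, did not pass the filter on low values and had overlapping ranges for TB14 and Trib1.

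Meg3 is a long noncoding RNA of the Dlk1 and Dio3 locus. Of its 10 probe sets, 1452183_PM_a_at represented the gene, as the one with the highest mean. It gave 60.5, 57.0, 57.5 and 57.9 in TB14, 104.8, 87.9, 88.4 and 107.8 in TB13, and 58.6, 62.7, 60.9 and 55.3 in Trib1. The TB13 arrays were high, and the TB14 and Trib1 arrays overlapped. The log2 difference was -0.02 ± 0.06 (SE) for TB14 minus Trib1 and 0.61 ± 0.06 for TB13 minus Trib1, which was 1.12 after quantile scaling. The remaining 9 Meg3 probe sets gave 7.13 to 26.6 in TB14, 7.38 to 39.4 in TB13 and 7.31 to 25.3 in Trib1, and their log2 differences lay between -0.04 and 0.04 for TB14 minus Trib1 and between -0.01 and 0.47 for TB13 minus Trib1. After quantile scaling the second range was -0.03 to 0.33, below the value of the probe set that represented Meg3.

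Peg3 and Plagl1 encode zinc finger proteins, and Plagl1 is known as a growth-restraining transcription factor. Peg3 gave 9.97 to 20.4 over both probe sets in TB14, 13.8 to 31.6 in TB13 and 10.0 to 21.0 in Trib1. Plagl1 gave 9.59 to 12.1 in TB14, 11.4 to 19.2 in TB13 and 9.15 to 13.6 in Trib1. None of these 4 probe sets passed the filter on low values, and the TB14 and Trib1 ranges overlapped for each. The log2 differences were -0.05 to 0.03 for TB14 minus Trib1 and 0.20 to 0.33 for TB13 minus Trib1, the second range being 0.11 to 0.18 after quantile scaling.

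Over all members, 12 of the 21 probe sets passed the filter, which asked for a value above the array median on at least 4 of the 12 arrays, and 7 lay above it on all 12. Snrpn, Impact, Grb10 and Meg3 had at least 1 such probe set, and Peg3 and Plagl1 had none. Just inside the filter, with 4 arrays above, lay Snrpn 1432096_PM_at and Meg3 1428764_PM_at, and just outside it, with 3, lay Peg3 1417355_PM_at. A probe set that passed only through its TB13 arrays had to differ there, so nothing is read from the count.

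For TB14 against Trib1, 1 member probe set lay higher without overlap, 2 lay lower and 18 overlapped, where 22.0% and 16.7% of all 28898 single-gene probe sets lay higher and lower. The 1 was from Grb10 and the 2 from Snrpn and Impact, and the counts were the same after quantile scaling, with 21.5% and 17.0% over all. For TB13 against Trib1, 19 lay higher, 1 lower and 1 overlapped as deposited, where 36.0% and 39.2% of all lay higher and lower. After quantile scaling these counts were 9, 1 and 11, and the shares of all were 26.6% and 28.8%. Among the 11752 probe sets below the array median on all Trib1 arrays, as 10 of the 21 members were, 57.1% lay higher in TB13 as deposited and 21.0% after quantile scaling. For TB14 against TB13, 1 member probe set lay higher and 17 lower as deposited, where 40.1% and 37.5% of all did, and 0 and 10 after quantile scaling, where 30.9% and 27.1% did. Since the members were chosen on these contrasts, nothing is read from these counts either.

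**Figure D3:**
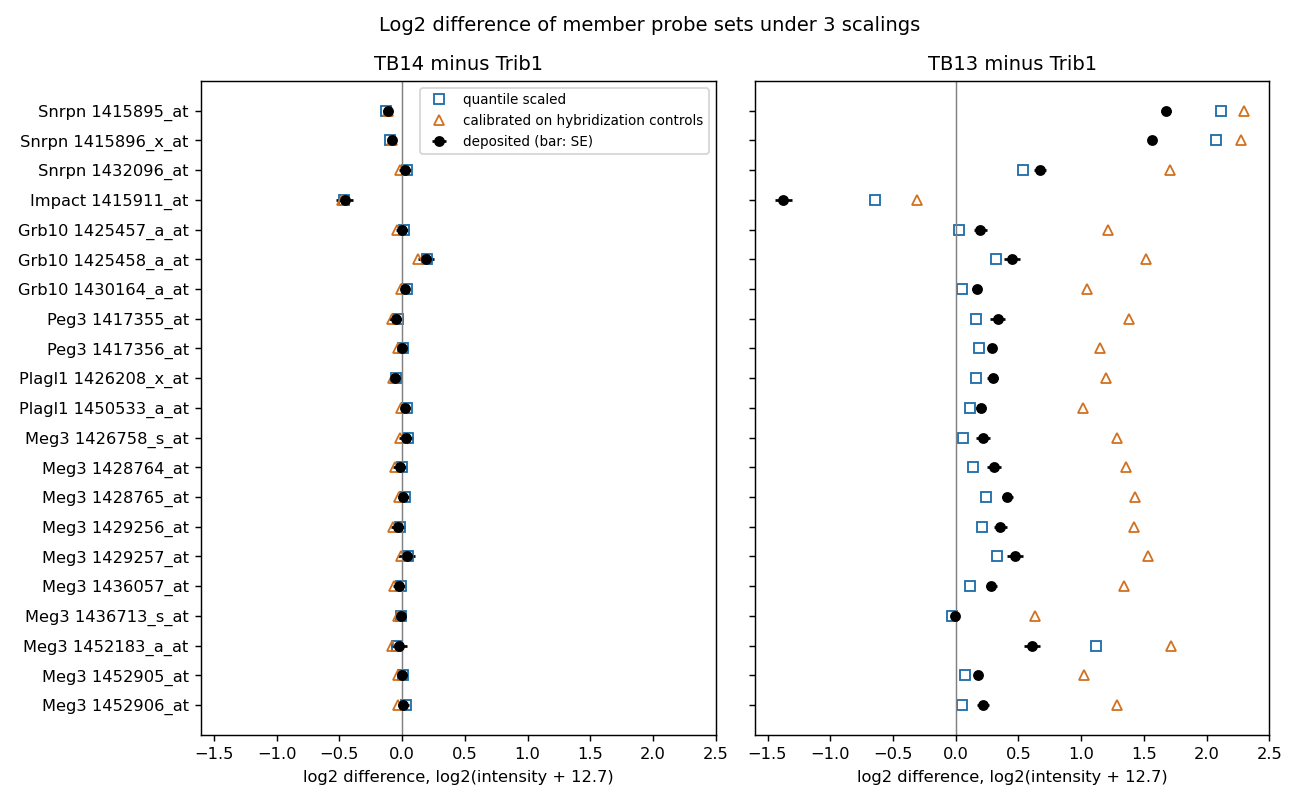
Log2 difference of each member probe set for TB14 minus Trib1 (left) and TB13 minus Trib1 (right), on the log2(intensity + 12.7) scale. Filled circles are deposited values with the SE of the linear model, squares are quantile scaled and triangles are calibrated on the hybridization controls; the scalings coincide for TB14 and part for TB13, where calibration puts every dim probe set above 0.6 and leaves Impact below 0.

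Of 73 other imprinted genes on a list used for comparison, 58 had a single-gene probe set and 32 passed the filter and were tested. Whether each of these genes is imprinted in these cells was not measured. For TB14 minus Trib1, 9 of the 32 were higher, 3 lower and 20 did not pass at an adjusted p under 0.05 in limma, where 27.0% of all genes tested were higher and 21.5% lower. Their median log2 difference was 0.017, against -0.0024 over all genes tested. For TB13 minus Trib1, 16 were higher and 14 lower as deposited, where 29.0% and 63.6% of all were, with a median of 0.11 against -0.39. Ddc and Dcn, counted as higher, passed the filter only through their 4 TB13 arrays and so had to differ there. Slc22a2, also counted as higher, passed through its 4 TB13 arrays and 1 TB14 array. The same filter applied to all genes tested, and nothing is read from these genes about TB13. After quantile scaling the counts were 18 and 11, where 41.9% and 38.4% of all were, with a median of 0.16 against 0.03. Calibration on the hybridization controls made the counts 25 and 2, where 73.8% and 11.4% of all were, and median scaling 12 and 15, where 20.6% and 70.6% were, so the split for TB13 followed the scaling. For the mean of both lines minus Trib1, 16 were higher and 13 lower as deposited, where 28.4% and 55.9% of all were, and 17 and 9 after quantile scaling, where 38.6% and 31.6% were. For TB14 minus TB13, 17 were higher and 13 lower as deposited, where 63.4% and 29.4% of all were, and 13 and 12 after quantile scaling, where 38.9% and 41.1% were. Quantile scaling gave 7 higher and 3 lower for TB14 minus Trib1, where 22.9% and 20.9% of all were.

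Cd81, a tetraspanin gene of the Kcnq1 and Igf2 domain, rose in both Bcl11a lines. It gave 212.3 ± 9.43 in TB14, 104.6 ± 4.79 in TB13 and 31.1 ± 2.57 in Trib1 (SD, n = 4 each). The log2 difference was 2.36 ± 0.05 for TB14 minus Trib1 (SE, limma adjusted p = 1.7e-17). For TB13 minus Trib1 it was 1.42 (limma adjusted p = 8.7e-15), or 1.88 after quantile scaling. Tspan32, another tetraspanin gene of that domain, gave 550.9 ± 9.25 in TB14, 328.6 ± 22.2 in TB13 and 284.4 ± 5.57 in Trib1. It rose by 0.92 on the log2 scale in TB14 (adjusted p = 3.6e-13), and for TB13 minus Trib1 its difference was 0.20 as deposited, 0.92 after quantile scaling and -0.06 after median scaling. Tssc4, from the same domain, rose by 0.70 in TB14 (adjusted p = 3.2e-11), and in TB13 it was at -0.44 as deposited and 0.27 after quantile scaling. Slc22a18, a transporter gene, and Kcnq1, a potassium channel gene, were higher in TB13 by 0.90 and 0.77 as deposited (adjusted p = 2.2e-11 and 5.0e-09) and by 1.32 and 0.97 after quantile scaling. In TB14 they did not pass, at 0.04 and -0.04. Osbpl5, a lipid-binding protein gene, was at -0.17 in TB14 (adjusted p = 0.016) and at -0.70 in TB13 (adjusted p = 5.3e-10), which was -0.54 after quantile scaling and 0.48 after calibration. Its call in TB14 was lost without Trib1 array 3 or 4 (adjusted p = 0.065 and 0.053).

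Of the other 7 genes listed for the Snrpn domain on chromosome 7, 2 were tested. Snurf, Ndn, Magel2, Mkrn3 and Peg12, known as paternally expressed, lay below the array median on all 12 arrays in every single-gene probe set and were not tested. Ube3a, a ubiquitin ligase gene that is maternally expressed in neurons, gave 593.7 ± 15.1 in TB14, 283.5 ± 20.04 in TB13 and 520.0 ± 18.5 in Trib1 (SD, n = 4 each). Its log2 difference was 0.19 for TB14 minus Trib1 (limma adjusted p = 0.0010) and -0.85 for TB13 minus Trib1 (adjusted p = 3.4e-13), the second being -0.12 after quantile scaling and 0.02 after calibration. Atp10a, a lipid flippase gene, gave 271.8 ± 9.36 in TB14, 125.5 ± 10.1 in TB13 and 256.1 ± 9.23 in Trib1. It did not pass in TB14, at 0.08, and in TB13 was at -0.96 as deposited, -0.22 after quantile scaling and 0.11 after calibration. In the Meg3 domain only Rian, another long noncoding RNA, was tested, at 32.0 in TB14, 47.5 in TB13 and 30.5 in Trib1, a log2 difference of 0.48 for TB13 minus Trib1 as deposited and 0.49 after quantile scaling. In the Peg3 domain only Usp29 was tested, at 29.4 in TB14, 51.7 in TB13 and 28.4 in Trib1, with differences of 0.65 and 0.71.

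The remaining imprinted genes named here were lower in TB13 as deposited. Pon2, a paraoxonase gene near Peg10, was higher in TB14 by 0.18 (limma adjusted p = 0.0019) and lower in TB13, at -1.24 (adjusted p = 2.8e-15), or -0.55 after quantile scaling. Blcap, which hosts Nnat, was at -0.17 in TB14 (adjusted p = 0.0076) and at -1.09 in TB13, or -0.50 after quantile scaling and 0.04 after calibration. H13, a signal peptide peptidase gene, was at -0.09 in TB14 (adjusted p = 0.0088), a call lost after median scaling (adjusted p = 0.058) and calibration (0.27), and at -0.88 in TB13, or -0.42 after quantile scaling. Copg2, a coat protein gene beside Mest, Chrac1, a chromatin remodelling subunit gene, and Commd1, a copper homeostasis gene, did not pass in TB14, at -0.06, -0.04 and -0.05. In TB13 they were at -0.93, -1.13 and -0.89 as deposited and at -0.18, -0.41 and -0.20 after quantile scaling, and calibration put Copg2 at 0.14.

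**Figure D4:**
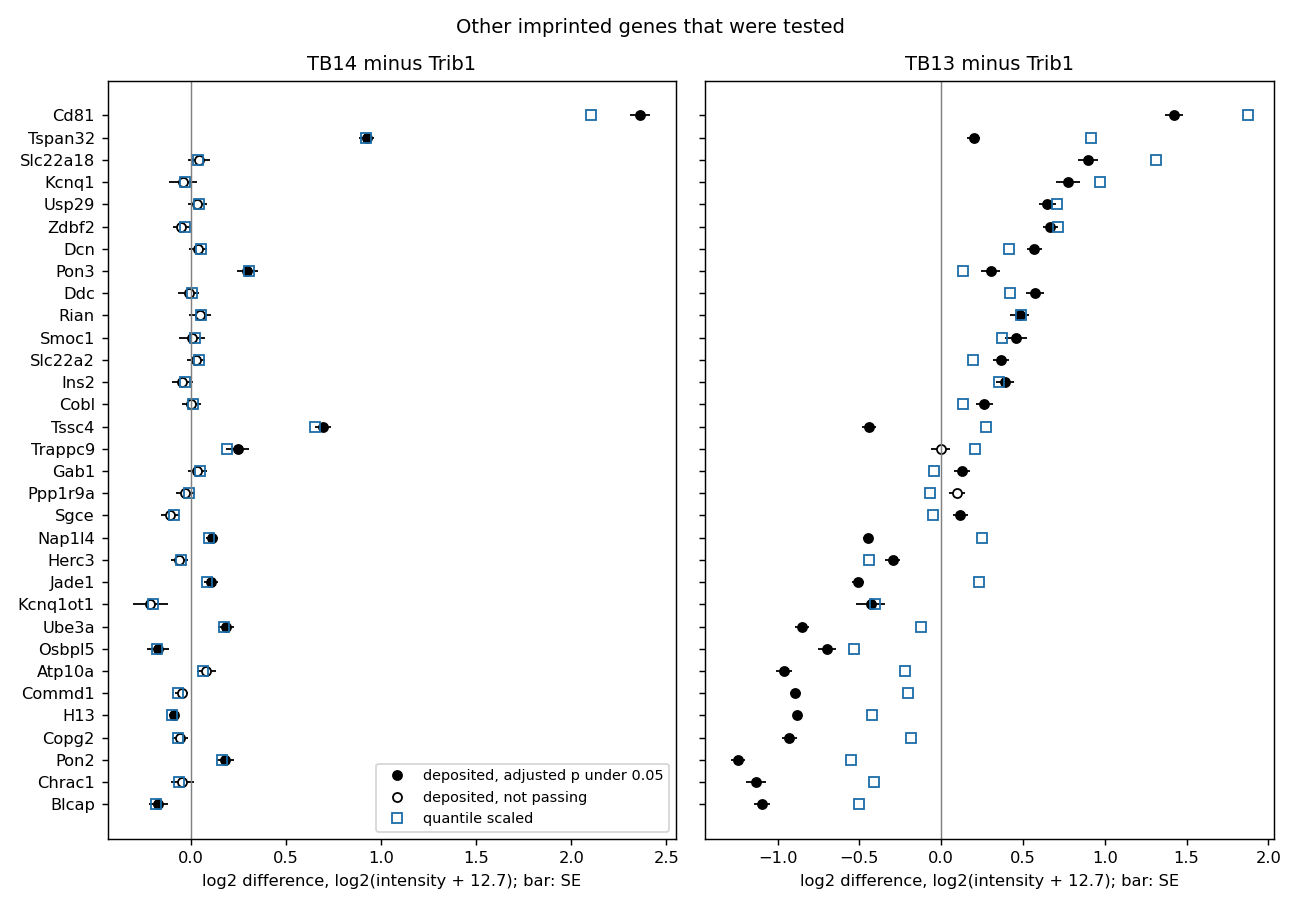
Log2 difference of the 32 other imprinted genes tested, for TB14 minus Trib1 (left) and TB13 minus Trib1 (right), on the log2(intensity + 12.7) scale. Circles are deposited values with SE, filled where the adjusted p was under 0.05, and squares are quantile scaled; Cd81 lies at 2.36 and 1.42, and Tssc4 changes side of 0 between the scalings for TB13.

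Of 29 genes that place or keep DNA methylation and imprints, 24 were tested. For TB14 minus Trib1, 11 were higher, 1 lower and 12 did not pass, where 27.0% and 21.5% of all genes tested were higher and lower, and their median log2 difference was 0.10 against -0.0024. For TB13 minus Trib1, 3 were higher and 19 lower as deposited, where 29.0% and 63.6% of all were, and 9 and 9 after quantile scaling, where 41.9% and 38.4% were. The 1 gene lower in TB14 was Dnmt3a, which encodes a de novo DNA methyltransferase. Dnmt3a probe set 1423063_PM_at gave 140.8, 142.8, 150.7 and 142.5 in TB14, 100.1, 87.4, 86.0 and 88.1 in TB13, and 536.5, 517.3, 518.5 and 524.5 in Trib1. The Trib1 arrays were all above 500 and those of both Bcl11a lines all below 151. It fell by 1.78 in TB14 (limma adjusted p = 8.9e-17) and by 2.38 in TB13 (adjusted p = 7.4e-19), or by 1.75 in TB13 after quantile scaling and 1.34 after calibration, on the log2 scale.

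The other 4 Dnmt3a probe sets, fitted with all single-gene probe sets, were also at lower values in TB14, with log2 differences of -0.64, -1.29, -1.20 and -1.63 for TB14 minus Trib1. For TB13 minus Trib1 they were at -0.31, -1.23, -1.43 and -2.34 as deposited. After quantile scaling the TB13 differences were 0.08, -0.91, -0.71 and -2.10, so 1423064_PM_at, the first of these, no longer lay below 0. Dnmt3b, the other de novo methyltransferase gene, rose in TB14 to 229.3 ± 23.3, against 119.6 ± 6.54 in Trib1 (SD, n = 4 each), a log2 difference of 0.87 (adjusted p = 4.3e-10). In TB13 it averaged 118.5 ± 4.57, at -0.01 as deposited (adjusted p = 0.85), 0.65 after quantile scaling and -0.25 after median scaling. Uhrf1, whose product brings Dnmt1 to copied DNA, rose by 0.47 in TB14 (adjusted p = 3.4e-10) and in TB13 was at -0.43 as deposited and 0.22 after quantile scaling. Arid4a, known in the mouse for a part in imprinting of the Snrpn domain, rose by 0.44 in TB14 (adjusted p = 8.4e-07) and in TB13 was at -0.50 as deposited, -0.60 after quantile scaling and 0.64 after calibration. Dnmt1, the maintenance methyltransferase gene, averaged 1466 in TB14, 1119.2 in TB13 and 1512 in Trib1 and did not pass in TB14, at -0.04 (adjusted p = 0.20), and in TB13 was at -0.43 as deposited and -0.12 after quantile scaling. Whether any of these levels bears on the members was not tested, and DNA methylation was not analysed here.

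**Figure D5:**
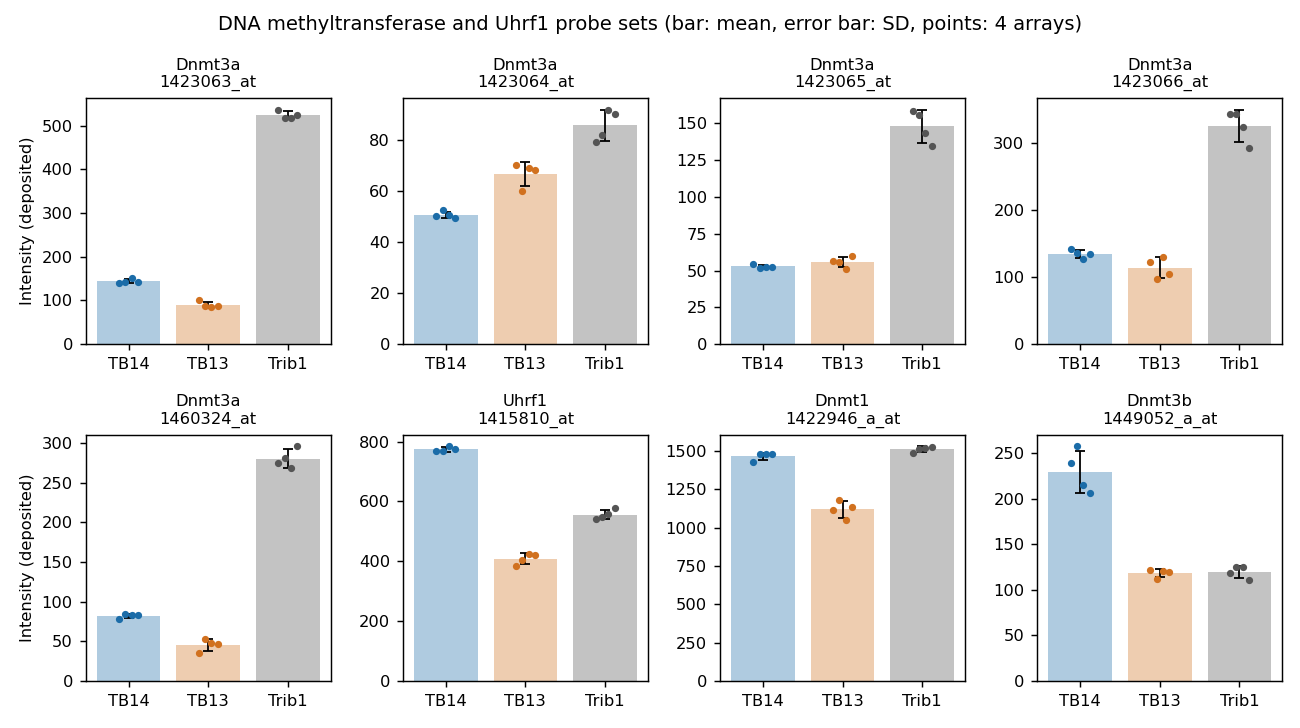
Deposited intensity of 5 Dnmt3a probe sets and of the probe sets that represented Uhrf1, Dnmt1 and Dnmt3b in TB14, TB13 and Trib1. Bars are means of 4 arrays, error bars are SDs, points are arrays and each panel has its own axis from 0; every Dnmt3a panel has its highest bar in Trib1.

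The genes that work with the members' products were described from lists. Of 15 genes for Sm core and snRNP proteins and their assembly, the protein family of Snrpn, 13 were higher in TB14, 0 lower and 2 did not pass, where 27.0% and 21.5% of all genes tested were higher and lower, with a median log2 difference of 0.23 against -0.0024. For TB13 minus Trib1, 0 were higher and 14 lower as deposited, where 29.0% and 63.6% of all were, and 4 and 4 after quantile scaling, where 41.9% and 38.4% were. Snrpa1, a U2 snRNP protein gene, rose in TB14 by 0.68 (limma adjusted p = 2.6e-11). Smn1 and Gemin2, of the SMN assembly complex, and Prmt5, which methylates Sm proteins, rose in TB14 by 0.35, 0.28 and 0.27. Snrpn itself, by its representative probe set, was at -0.11 in TB14 and 1.68 in TB13, where the list had medians of 0.23 and -0.38 as deposited. After quantile scaling Snrpn was at 2.12 in TB13, and the list had a median of -0.02.

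Of 14 gene symbols on a list around the GCN2 pathway, 12 were tested. The product of Impact acts on GCN2. The list also held Eif2ak1, Eif2ak2 and Eif2ak3, which encode other kinases than GCN2, and had Gcn1 under 2 symbols. Its counts are thus not counts of GCN2 and its partners alone. In TB14, 1 was higher and 7 lower, where 27.0% and 21.5% of all genes tested were, with a median log2 difference of -0.18 against -0.0024. Ddit3 and Trib3, both known targets of the stress factor ATF4, gave 161.1 ± 3.50 and 216.7 ± 6.38 in TB14, 483.1 ± 16.9 and 537.5 ± 5.35 in TB13, and 355.8 ± 14.7 and 443.8 ± 3.86 in Trib1 (SD, n = 4 each). They fell in TB14 by 1.08 and 0.99 on the log2 scale (adjusted p = 1.1e-14 and 1.7e-15) and rose in TB13 by 0.43 and 0.27 as deposited (adjusted p = 2.9e-09 and 1.2e-07), or by 1.06 and 0.88 after quantile scaling. Median scaling put Trib3 at 0.0093 in TB13 (adjusted p = 0.79). Ppp1r15a, a phosphatase subunit gene, and Asns, the asparagine synthetase gene, fell in TB14 by 0.55 and 0.48 (adjusted p = 7.6e-08 and 2.9e-13). In TB13 they were at -0.47 and -0.22 as deposited and at 0.19 and -0.06 after quantile scaling. The list as a whole had 2 higher and 9 lower in TB13 as deposited, where 29.0% and 63.6% of all were, and 5 and 6 after quantile scaling, where 41.9% and 38.4% were.

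Of 21 genes of insulin and IGF receptor signalling, which the product of Grb10 dampens, 14 were tested. In TB14, 3 were higher and 5 lower, where 27.0% and 21.5% of all genes tested were, and the median log2 difference was -0.01. In TB13, 2 were higher and 11 lower as deposited, where 29.0% and 63.6% of all were, and 5 and 6 after quantile scaling, where 41.9% and 38.4% were. Insr, the insulin receptor gene, and Foxo3, a transcription factor gene held in check by that pathway, fell in TB14 by 0.40 and 0.42 (limma adjusted p = 1.2e-05 and 4.8e-09), and in TB13 by 1.04 and 1.26 as deposited, or by 0.48 and 0.51 after quantile scaling. Calibration put Insr at 0.10 in TB13. Pik3cb, a phosphoinositide kinase gene, and Nedd4, a ubiquitin ligase gene, rose in TB14 by 0.43 and 0.39 (adjusted p = 9.7e-06 and 2.0e-08).

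Of 14 genes of mannose 6-phosphate transport, the route of the receptor encoded by Igf2r, 12 were tested. In TB14, 4 were higher and 3 lower, where 27.0% and 21.5% of all genes tested were, and the median log2 difference was -0.04. In TB13, 2 were higher and 10 lower as deposited, where 29.0% and 63.6% of all were, and 5 and 6 after quantile scaling, where 41.9% and 38.4% were. Sort1, the sortilin gene, rose in both lines, by 0.60 in TB14 (limma adjusted p = 2.7e-08) and by 1.14 in TB13 (adjusted p = 3.0e-13), or by 1.71 in TB13 after quantile scaling. Furin, a protease gene, fell by 0.51 in TB14 (adjusted p = 1.8e-07) and by 1.05 in TB13 (adjusted p = 5.9e-13), or by 0.29 after quantile scaling and 0.09 after calibration (adjusted p = 0.12). Gnptab, which encodes the enzyme that starts the mannose 6-phosphate tag, rose by 0.35 in TB14 (adjusted p = 0.00083) and fell by 1.66 in TB13 (adjusted p = 1.4e-13), or by 1.37 after quantile scaling. Ap1g1, an adaptor subunit gene, rose by 0.28 in TB14 (adjusted p = 0.00044) and in TB13 was at -0.25 as deposited and 0.49 after quantile scaling.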

How the data were processed

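Biotin-labelled cRNA from 100 ng of total RNA was hybridized for 12 samples, per the labels' protocols. The deposited values were linear intensities for which the submitters' processing notes name MAS5 without a version. The sources used here do not give a scaling target or a genome build. The members and gene lists were chosen with earlier results of these data known.

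Of 45141 probe sets, 104 controls were left out. In the platform annotation 28898 had 1 gene, 551 several and 15588 none, and only those with 1 gene were named. The log2 scale added 12.7 (the 25th percentile of all values) to each intensity, which understates the change of dim genes. Probe sets above the array median on at least 4 of the 12 arrays were kept (17480), and the one with the highest mean represented each of 11223 genes. A linear model with 3 groups was fitted in R 4.3.3 with limma 3.58.1 (moderated variances with a trend), with Benjamini-Hochberg adjustment over all genes and calls under 0.05. Member SEs came from the same model over all 28898 probe sets. Calibration fitted, for each array, the 18 hybridization controls to their mean over arrays as a quadratic curve, kept flat beyond the controls. Simulated data served to test the code.

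Genes named were all members, the 12 other imprinted genes with the largest called difference of both lines from Trib1 and the 6 with the largest between TB14 and TB13 with ranges that did not overlap, up to 4 called genes of each pathway list by TB14 minus Trib1, the 5 genes most like Snrpn, and Bcl11a and Trib1. Dnmt1, Rian, Usp29 and the dim neighbours of Snrpn were named after their values were seen, as were the neural markers. The number of arrays limits the precision. Figures were drawn with matplotlib 3.10.9.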

Additional observations from a re-analysis of the deposited data

Results flagged for a closer look

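Of 165 groups of 4 arrays examined, 9 held 1 array set apart from the other 3 by a gap beyond Dixon's critical value, and chance gives about 1 in 20. For Snrpn 1415896_PM_x_at, TB13 array 1 was at 780.1, against 809.1 to 814.1 on the other arrays. For Meg3, 1428765_PM_at was at 17.61 on TB14 array 3, against 16.12 to 16.26, and 1436057_PM_at at 22.14 on TB14 array 1, against 20.29 to 20.58. For Dnmt3a, TB13 array 1 was at 100.1, against 86.03 to 88.14. Smn1 was at 89.58 on TB13 array 3, against 125.2 to 127.8, and Prmt5 at 345.8 on TB13 array 2, against 378.6 to 385.1. Pon2 was at 304.7 on TB14 array 4, against 282.2 to 285.8. Gnptab was at 37.58 on TB13 array 4, against 54.45 to 56.76, and Pik3cb at 57.2 on Trib1 array 4, against 48.69 to 50.11.

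Other results stood out because the Bcl11a lines differed from each other. For Snrpn the log2 difference of TB14 minus TB13 was -1.79 for 1415895_PM_at and -1.65 for 1415896_PM_x_at, or -2.25 and -2.17 after quantile scaling, and it was not tested. The following genes passed in the linear model as deposited and after quantile scaling, median scaling and calibration, always in the same direction. Pon2 was at 1.42 (0.71 after quantile scaling), H13 at 0.80 (0.32), Ube3a at 1.04 (0.30), Uhrf1 at 0.90 (0.26) and Gnptab at 2.01 (1.69). Snrpa1 was at 1.13 (0.50) and Prmt5 at 0.96 (0.29). Slc22a18 was at -0.85 (-1.28), Kcnq1 at -0.82 (-1.0) and Sort1 at -0.54 (-1.21). Ddit3 was at -1.51 (-2.14) and Trib3 at -1.26 (-1.89). Named genes that turned or did not pass under some scaling are not listed. Cd81, for example, was at 0.94 as deposited, 0.23 after quantile scaling and -0.16 after calibration.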

How the results depend on the processing

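For the 32 other imprinted genes tested, 12 were called for TB14 minus Trib1, 30 for TB13 minus Trib1, 29 for both lines minus Trib1 and 30 for TB14 minus TB13, where 48.5%, 92.6%, 84.2% and 92.8% of all genes tested were. Leaving out each array gave 10 to 13, 28 to 31, 28 to 29 and 28 to 30. Asking for 2-fold or more left 1, 4, 1 and 5, where 2.82%, 15.8%, 3.47% and 16.5% of all were left, and with quantile scaling, a combination chosen after seeing the data, 1, 2, 1 and 1, where 2.54%, 9.28%, 2.28% and 8.65% were. With no filter 58 genes were tested, and 52 were called for TB13 minus Trib1, 46 for both lines and 50 for TB14 minus TB13, where 87.3%, 72.5% and 87.9% of all 17097 genes were. Deviations of same-numbered arrays of different lines correlated at -0.105 to 0.12, against -0.066 to 0.078 for arrays with other numbers. Of 12 arrays, 6 correlated best with their own number. These correlations were small and do not settle whether shared array numbers pair the samples. With the replicate number as a block the calls were 13, 30, 29 and 30.

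Directions that turned concerned TB13, whose array scale differed; the cause was not tested. Calibration put Impact at -0.17 for TB14 minus TB13. For TB13 minus Trib1, calibration gave Blcap 0.0395, Copg2 0.14, Atp10a 0.11, Osbpl5 0.48, Tssc4 0.65, Ube3a 0.0227, Uhrf1 0.36, Arid4a 0.64, Snrpa1 0.36, Smn1 0.33, Gemin2 0.56, Prmt5 0.11, Ppp1r15a 0.64, Pik3cb 0.97, Insr 0.10 and Ap1g1 0.81. Quantile scaling gave Tssc4 0.27, Uhrf1 0.22, Snrpa1 0.22, Ppp1r15a 0.19 and Ap1g1 0.49, and median scaling gave Tspan32 -0.058. Blcap, Ube3a, Atp10a and Insr did not pass after calibration (limma adjusted p = 0.56, 0.68, 0.12 and 0.22). Tspan32 did not pass after median scaling (limma adjusted p = 0.21). For these genes the call was lost rather than reversed. Among the named genes, 3 calls were lost on leaving out 1 array: Osbpl5 in TB14 without Trib1 array 3 or 4 (-0.14 and -0.15) and Pik3cb in TB13 without Trib1 array 4 (-0.14). Other settings cost 11 further calls whose direction held and added 3, and the blocked fit changed none of the named genes' calls. With TB13 on another scale, a difference that involves it has no settled size, and probe sets near the array median carry little signal over background.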
